A study of Homo sapiens with 30 samples.

Results

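The aldo-keto reductases AKR1B1, AKR1B10, AKR1C1, AKR1C2 and AKR1C3 and the carbonyl reductases CBR1 and CBR3 were followed in A375 cells, a human melanoma line with mutant BRAF, treated with MLN4924 or with its vehicle DMSO. Every probe set annotated to exactly 1 of the 7 gene symbols was taken, which gave 12 of 41097 probe sets with 1 symbol on the Affymetrix HG-U133 Plus 2.0 array. They stood for 6 of the 7 genes: 5 probe sets for AKR1C1, 3 for AKR1C2 and 1 each for AKR1B10, AKR1C3, CBR1 and CBR3. No probe set carried the symbol AKR1B1 alone, and that gene was not analysed here. MLN4924 (pevonedistat) inhibits the enzyme that activates the ubiquitin-like protein NEDD8. The groups were cells given 650 nM MLN4924 for 1, 2, 4, 8 or 24 h and cells given 0.065% DMSO for the same times, with 3 arrays in each of the 10 groups and 30 in all. A single line was used, and whether replicates came from separate cultures is not stated in the labels; the p-values therefore cover the variation among these arrays alone, part or all of which may be technical.

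Both enzyme families use NADPH to turn reactive carbonyl groups into alcohols. The AKR1C enzymes act on steroids and prostaglandins as well as on toxic aldehydes, AKR1B10 reduces retinaldehyde and aldehydes that arise from oxidized lipids, and CBR1 and CBR3 belong to the short-chain dehydrogenases and reduce quinones and drugs such as anthracyclines. Several of these genes are known targets of the transcription factor NRF2, which binds antioxidant response elements in DNA. NRF2 is kept low by KEAP1, which presents it to a cullin 3 ubiquitin ligase, and cullin ligases need NEDD8 for full activity.

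The sequences around the annotated starts of AKR1C1 and AKR1C2 are shown because they are near copies of each other, and that of CBR1 because it holds a match to the core letters of an antioxidant response element. All are RefSeq windows of build GRCh38.p14 that run from 250 bases before the start to 50 after it, printed in the direction of the gene. The table held an entry for 4 of the 6 measured genes, with 2 starts for AKR1C3. AKR1C1 lies at chr10:4963165-4963464 on the plus strand, AKR1C2 at chr10:5003808-5004107 on the minus strand and CBR1 at chr21:36069774-36070073 on the plus strand. Capitals in AKR1C2 mark the bases with no identical partner in AKR1C1, of which the last run reaches beyond the AKR1C1 window. Capitals in CBR1 mark the match to TGACNNNGC, which reads TGACTTTGC on the opposite strand.
AKR1C1: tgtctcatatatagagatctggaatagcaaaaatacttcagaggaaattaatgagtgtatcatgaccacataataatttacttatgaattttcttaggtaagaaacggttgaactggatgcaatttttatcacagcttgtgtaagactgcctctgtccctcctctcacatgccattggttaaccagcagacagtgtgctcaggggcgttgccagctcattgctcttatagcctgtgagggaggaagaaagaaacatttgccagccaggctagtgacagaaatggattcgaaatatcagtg
AKR1C2: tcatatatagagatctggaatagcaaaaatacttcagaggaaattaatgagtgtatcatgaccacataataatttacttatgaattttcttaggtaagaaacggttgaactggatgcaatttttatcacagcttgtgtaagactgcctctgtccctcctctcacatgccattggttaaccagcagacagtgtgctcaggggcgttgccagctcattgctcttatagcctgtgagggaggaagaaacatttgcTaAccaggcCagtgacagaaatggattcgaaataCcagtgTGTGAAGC
CBR1: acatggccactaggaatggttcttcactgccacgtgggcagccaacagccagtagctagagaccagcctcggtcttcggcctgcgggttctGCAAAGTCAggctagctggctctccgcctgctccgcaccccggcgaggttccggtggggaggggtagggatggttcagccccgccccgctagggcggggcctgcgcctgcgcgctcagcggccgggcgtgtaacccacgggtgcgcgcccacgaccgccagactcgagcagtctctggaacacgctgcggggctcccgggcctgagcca
The AKR1C1 and AKR1C2 windows shared 288 bases in an alignment of 308 columns, 93.5% identity, against 74.7% between AKR1C1 and the upstream start of AKR1C3 and 71.6% between AKR1C1 and its downstream start. The match in CBR1 lay 159 to 151 bases before the start. TGACNNNGC, searched on both strands, was found in 13.3% of all 35116 RefSeq start windows, in the CBR1 window and in none of those of AKR1C1, AKR1C2 and AKR1C3. The AP-1 motif TGANTCA, searched likewise, was found in 7.71% of all windows and in none of these 4 genes. A match is a description of letters, and elements outside these windows were not searched.

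By gene order in the RefSeq table, AKR1C1, AKR1C2 and AKR1C3 are neighbours on chromosome 10, CBR1 and CBR3 are neighbours on chromosome 21, and AKR1B10 lies next to AKR1B1 on chromosome 7. The 4 brighter probe sets of AKR1C1 and AKR1C2 have names that end in _x_at, the maker's mark for probes that can also match other transcripts, so the signals of these 2 genes cannot be cleanly told apart. The probe sets of AKR1C3, CBR1 and CBR3 carry no such mark, and that of AKR1B10 ends in _s_at, the mark for probes shared by several transcripts.

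No pair of arrays in a group was alike enough to be a duplicate (highest correlation 0.9898 within groups, 0.9890 between groups). Of 9 melanocyte markers, 6 of 8 measured were above the median of all signals, among them SOX10 with group means of 320 to 1059, while the pigment genes PMEL (mean 24.4) and MLANA (17.2) were below it. Markers above the median numbered 3 of 6 for fibroblasts, 2 of 5 for epithelium, 1 of 3 for blood and 1 of 3 for endothelium. Of the epithelial and blood markers, KRT14 (124.6), KRT5 (45.5) and CD3E (44.3) were above it, and those below it included PTPRC at 10.9 and EPCAM at 10.7. Signals below are quantile-normalized array signals, changes are differences of group means of log2(signal + 32) between MLN4924 and DMSO arrays with n = 3 each and their SE, and adjusted p-values are from limma over all 41097 probe sets. The added 32 understates the changes of dim probe sets, those near or below the median normalized signal of 36.58.

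Apart from CBR1, which was called only at 8 h, the measured reductase genes took 3 courses after MLN4924. In the 4 _x_at probe sets and that of AKR1C3, the AKR1C genes rose at 4 h and 8 h and were closer to DMSO at 24 h. For 204151_x_at of AKR1C1 the difference between 8 h and 24 h was not called. AKR1B10 rose at 4 h and was higher still at 24 h, and CBR3 fell at 24 h. Of the 12 member probe sets, 0 were called at 1 h and 0 at 2 h, 6 rose at 4 h, 7 rose at 8 h, and at 24 h 3 rose and 1 fell. Over all probe sets 0.0219% were called at 1 h and 0.382% at 2 h, 1.3% were called higher at 4 h, 6.26% higher at 8 h, and 13.9% higher and 14.6% lower at 24 h. The median change of the members was 0.539 at 4 h, 0.613 at 8 h and 0.206 at 24 h, beside 0.000, 0.002 and 0.008 over all probe sets tested. All 3 MLN4924 arrays lay above all 3 DMSO arrays for 7 of the 12 at 4 h and 7 at 8 h, against 9.72% and 13.2% of all probe sets. An F test of the 5 changes together called 8 of the 12, against 26.7% of all probe sets. The 8 were those of AKR1B10 and CBR3, the 4 _x_at probe sets, AKR1C3 and 217626_at of AKR1C1. The 4 _x_at probe sets were also among those called at 4 h and 8 h. Because they may share signal, the counts above are of probe sets and not of separate genes.

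**Figure D1:**
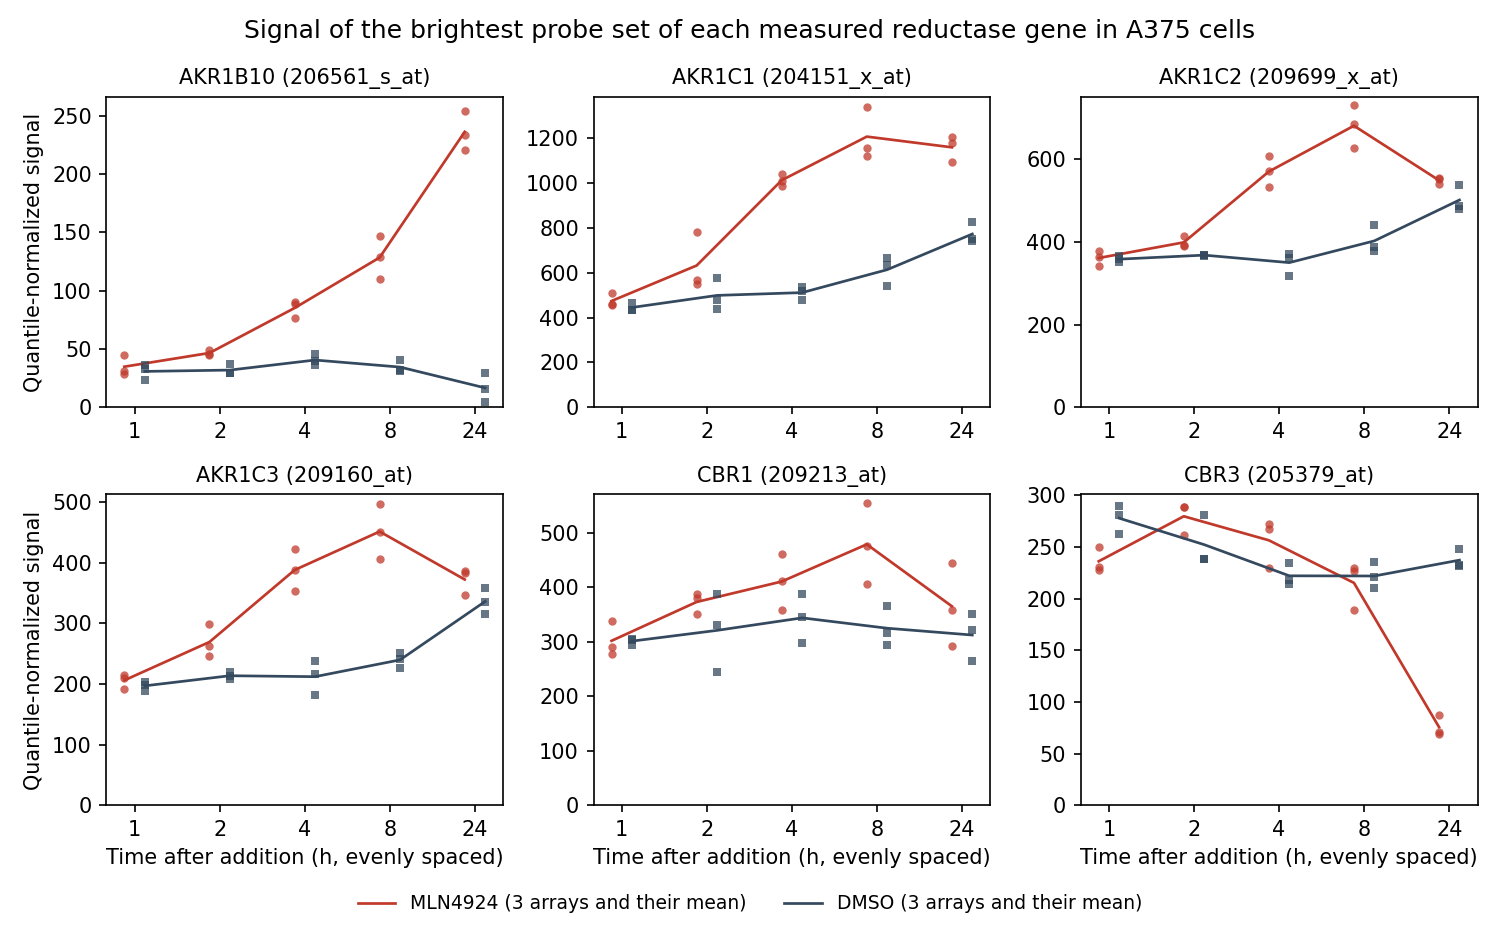
Quantile-normalized signal (linear axes from 0) of the brightest probe set of each of the 6 measured genes against time, with 3 arrays per group as points and group means as lines, MLN4924 in red and DMSO in dark blue. AKR1B10 reached 236 with MLN4924 at 24 h against 16.7 in DMSO, the AKR1C genes peaked with MLN4924 at 8 h, and CBR3 dropped to 75.7 with MLN4924 at 24 h against 237 in DMSO.

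AKR1C1 encodes a hydroxysteroid dehydrogenase that inactivates progesterone. Its brightest probe set, 204151_x_at, had signals of 984, 1040 and 1010 with MLN4924 at 4 h, against 478, 520 and 535 in DMSO, and the groups did not overlap. At 8 h it had 1121, 1339 and 1157 with MLN4924 and 636, 540 and 664 in DMSO, and at 24 h 1094, 1177 and 1203 with MLN4924 and 739, 751 and 825 in DMSO. All 3 MLN4924 arrays were above all 3 DMSO arrays at each of these times, and the DMSO arrays were highest at 24 h. The change was 0.94 at 4 h (SE 0.11, adjusted p = 3.48e-06), 0.94 at 8 h (SE 0.11, adjusted p = 1.12e-06) and 0.57 at 24 h (SE 0.11, adjusted p = 0.000194). At 2 h the groups overlapped, with 569, 547 and 779 in MLN4924 arrays and 440, 576 and 480 in DMSO arrays, and the change of 0.31 was not called (adjusted p = 0.265). One MLN4924 array of 2 h, replicate 3, was far above the other two.

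The second AKR1C1 probe set, 216594_x_at, averaged 785 ± 88.1 with MLN4924 and 375.2 ± 26.1 in DMSO at 4 h and 804 ± 57.8 with MLN4924 and 372 ± 8.84 in DMSO at 8 h (SD, n = 3 each). Its changes of 1.00 (SE 0.13, adjusted p = 1.87e-05) and 1.05 (SE 0.13, adjusted p = 2.94e-06) were close to those of the first. At 24 h only the first of these 2 probe sets was called, and the difference between them was not tested. The signals of 216594_x_at were 643, 744 and 525 with MLN4924 and 568, 457 and 604 in DMSO at that time. The groups overlapped, and the change of 0.22 was not called (SE 0.13, adjusted p = 0.247). The remaining 3 AKR1C1 probe sets were dim. The signal of 217626_at lay between 11.1 and 61.4 in MLN4924 arrays and between 5.2 and 32.9 in DMSO arrays, and it passed the F test (adjusted p = 0.0197) with no single time called (changes of 0.30 to 0.57). Probe sets 1555856_s_at (mean 11.03) and 1555855_at (mean 1.35) passed neither test. At 24 h 1555856_s_at had a mean of 13.7 ± 6.03 with MLN4924 and 1.74 ± 0.252 in DMSO (SD, n = 3 each), a change of 0.43 that was called with 1 in place of 32 added to the signal (2.35, adjusted p = 0.0175) and when the fit held just those 6 arrays (adjusted p = 0.0229). In that same fit 217626_at was also called at 24 h (0.46, adjusted p = 0.0428).

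AKR1C2, a close relative of AKR1C1, inactivates the androgen dihydrotestosterone. Probe set 209699_x_at had 571, 606 and 532 with MLN4924 at 4 h, against 361, 370 and 318 in DMSO, and at 8 h 627, 730 and 684 with MLN4924 against 441, 388 and 378 in DMSO. The groups were separate at both times, with changes of 0.66 (SE 0.07, adjusted p = 9.69e-07) and 0.71 (SE 0.07, adjusted p = 7.57e-08). At 24 h the MLN4924 arrays, at 540, 551 and 555, stayed just above the DMSO arrays, at 480, 537 and 486, and the change of 0.12 was not called (SE 0.07, adjusted p = 0.209). Probe set 211653_x_at averaged 569 ± 19.6 with MLN4924 and 292 ± 31.8 in DMSO at 8 h (SD, n = 3 each), a change of 0.89 (SE 0.09, adjusted p = 8.34e-08). Its change was 0.65 at 4 h (SE 0.09, adjusted p = 3.31e-05) and 0.28 at 24 h (SE 0.09, adjusted p = 0.0146). The 24 h call of 211653_x_at ended without DMSO replicate 1 (adjusted p = 0.0599), DMSO replicate 2 (0.0533) or MLN4924 replicate 1 (0.0984) of that time, and when the fit held just those 6 arrays (0.0565). That of 209699_x_at was gained with each array centred on its median (change 0.23, adjusted p = 0.0361). The dim 244266_at (mean 6.75) passed no test.

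**Figure D2:**
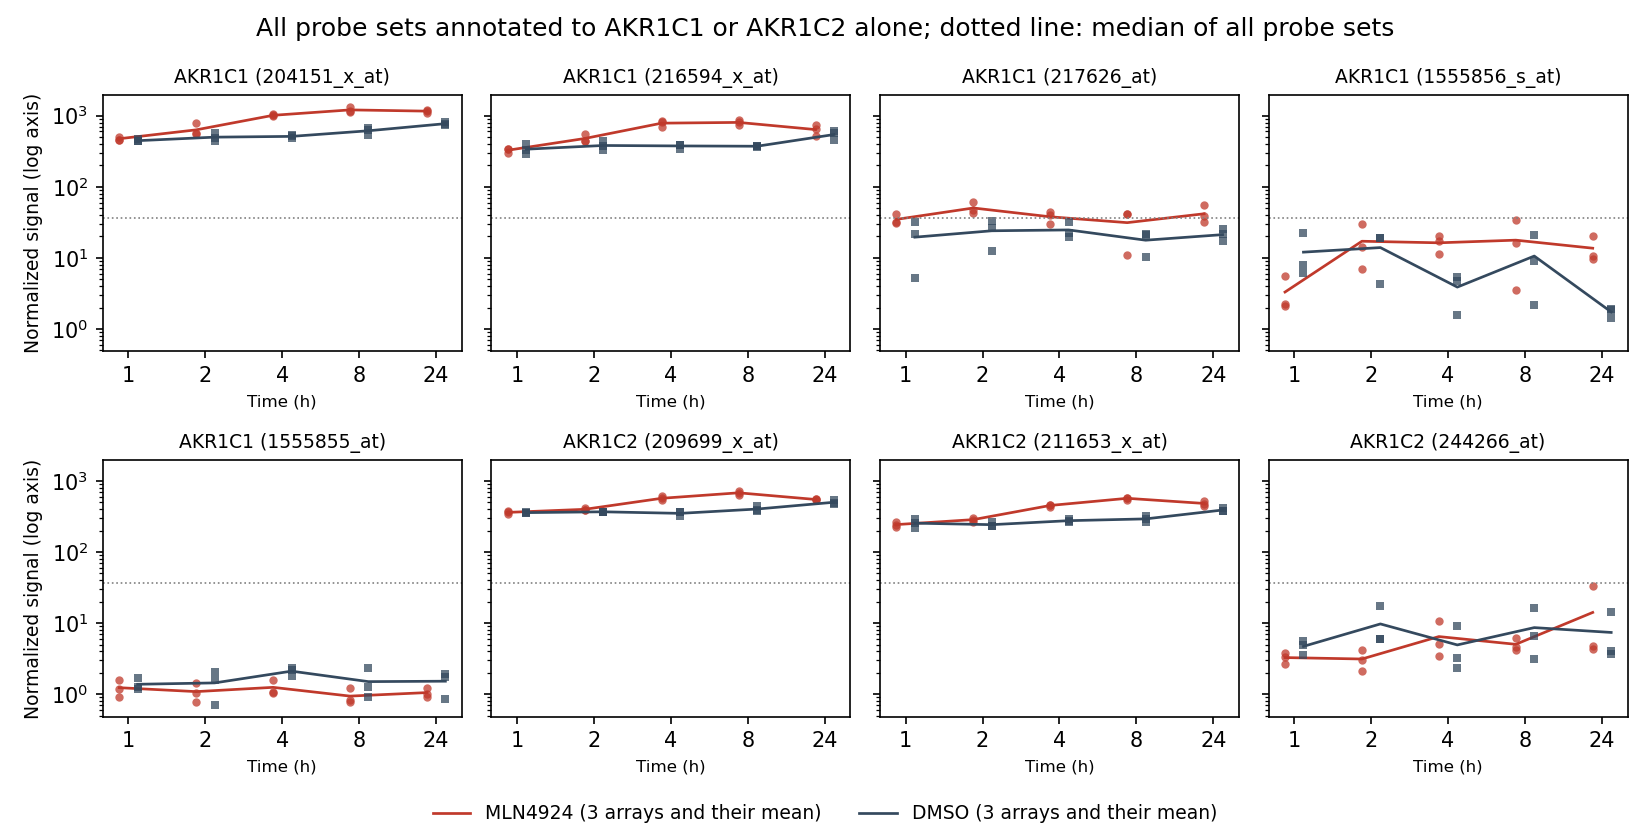
Quantile-normalized signal (log axis) of all 8 probe sets annotated to AKR1C1 or AKR1C2 alone against time, with 3 arrays per group as points and group means as lines, MLN4924 in red and DMSO in dark blue, and the median of all probe sets (36.58) dotted. The 4 _x_at probe sets lie above the median in every group and separate by treatment at 4 h and 8 h, and the other 4 lie near or below it.

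AKR1C3 makes testosterone from androstenedione and also acts as a prostaglandin F synthase. Its probe set 209160_at had 353, 422 and 389 with MLN4924 at 4 h, against 182, 238 and 217 in DMSO, and 407, 497 and 451 with MLN4924 at 8 h, against 251, 227 and 241 in DMSO. At both times every MLN4924 array was above every DMSO array. The changes were 0.79 at 4 h (SE 0.09, adjusted p = 1.92e-06) and 0.83 at 8 h (SE 0.09, adjusted p = 2.62e-07). At 24 h the signals were 347, 387 and 384 with MLN4924 and 358, 316 and 335 in DMSO, the groups overlapped, and the change of 0.14 was not called (SE 0.09, adjusted p = 0.291). Among the 10 group means of AKR1C3 the order from the top was MLN4924 at 8 h (451), 4 h (388) and 24 h (372), DMSO at 24 h (336), MLN4924 at 2 h (269), DMSO at 8 h (240), 2 h (214) and 4 h (212), MLN4924 at 1 h (206) and DMSO at 1 h (197). Arrays of neighbouring groups in this order overlapped, except between DMSO at 24 h and MLN4924 at 2 h and between DMSO at 8 h and DMSO at 2 h.

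The change with MLN4924 was smaller at 24 h than at 8 h for 4 of the 5 bright AKR1C probe sets in a direct test. For AKR1C3 the difference between the 2 changes was -0.69 (SE 0.12, adjusted p = 0.000219), for 209699_x_at of AKR1C2 -0.59 (SE 0.10, adjusted p = 0.000103), for 211653_x_at -0.61 (SE 0.12, adjusted p = 0.000912) and for 216594_x_at of AKR1C1 -0.83 (SE 0.18, adjusted p = 0.00193). For 204151_x_at it was -0.37 and not called (SE 0.15, adjusted p = 0.112). Over all probe sets 8.09% were called in this direction. Between 8 h and 24 h the mean of AKR1C3 stood at 372 in the later and 451 in the earlier MLN4924 group, and at 336 in the later and 240 in the earlier DMSO group. The difference between 8 h and 24 h within either treatment was not tested.

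In vehicle alone, the bright AKR1C probe sets were higher at 24 h than at 1 h. AKR1C3 had 358, 316 and 335 in DMSO at 24 h, against 198, 204 and 189 in DMSO at 1 h, a change of 0.68 (SE 0.09, adjusted p = 4.41e-06). The corresponding change was 0.75 for 204151_x_at (SE 0.11, adjusted p = 2.22e-05), 0.64 for 216594_x_at (SE 0.13, adjusted p = 0.00103), 0.45 for 209699_x_at (SE 0.07, adjusted p = 5.28e-05) and 0.56 for 211653_x_at (SE 0.09, adjusted p = 5.63e-05). The arrays of the 2 times did not overlap for any of these 5 probe sets, and 7.43% of all probe sets were called higher in this comparison. The dim probe sets were not called. Among them, 217626_at changed by 0.08, 1555855_at by 0.01, 244266_at by 0.09 and 1555856_s_at by -0.37, the last with all 24 h arrays below all 1 h arrays. Probe set 1555854_at, annotated to both AKR1C2 and AKR1C1, changed by 0.13 and was not called in a fit of all probe sets (adjusted p = 0.643). The DMSO signals of AKR1C3 at 24 h, 316 to 358, also lay above all DMSO signals at 8 h, 227 to 251.

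AKR1B10 showed the largest change of the 12 probe sets, at 24 h. Probe set 206561_s_at had 221, 254 and 234 with MLN4924 at 24 h, against 15.5, 29.8 and 4.87 in DMSO, a change of 2.49 (SE 0.13, adjusted p = 2.44e-13). The DMSO signals were below the median of all probe sets, and no fold on the linear scale is given. At 8 h the signals were 110, 147 and 129 with MLN4924 and 30.9, 40.6 and 32.2 in DMSO, a change of 1.27 (SE 0.13, adjusted p = 2.61e-07). At 4 h they were 90.7, 88.5 and 76.4 with MLN4924 and 45.8, 36.1 and 40.0 in DMSO, a change of 0.69 (SE 0.13, adjusted p = 0.00296). The groups were separate at 2, 4, 8 and 24 h, and at 2 h the change of 0.30 was not called (SE 0.13, adjusted p = 0.429). With 1 in place of 32 added to the signal the change at 4 h was 1.05 and was not called (adjusted p = 0.158).

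The MLN4924 arrays of AKR1B10 at 4, 8 and 24 h formed 3 ranges that did not overlap: 76.4 to 90.7, 110 to 147 and 221 to 254. The change at 24 h exceeded that at 8 h by 1.22 (SE 0.19, adjusted p = 3.88e-05), in a comparison that called 6.76% of all probe sets higher. Part of this difference lay in the vehicle. The mean signal was 128.5 at 8 h and 236.3 at 24 h with MLN4924, and 34.57 at 8 h and 16.73 at 24 h in DMSO. In DMSO the 24 h arrays averaged below the 1 h arrays (15.5, 29.8 and 4.87 against 36.2, 23.3 and 33.1), with a change of -0.39 that only just passed (SE 0.13, adjusted p = 0.0486, against 6.48% of probe sets called lower) while the arrays overlapped. That call ended under 9 of 17 alternatives, with an adjusted p of up to 0.365 without DMSO 24 h replicate 3, whose signal was 4.87. All 3 MLN4924 arrays of 24 h were above every other array of the series.

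**Figure D3:**
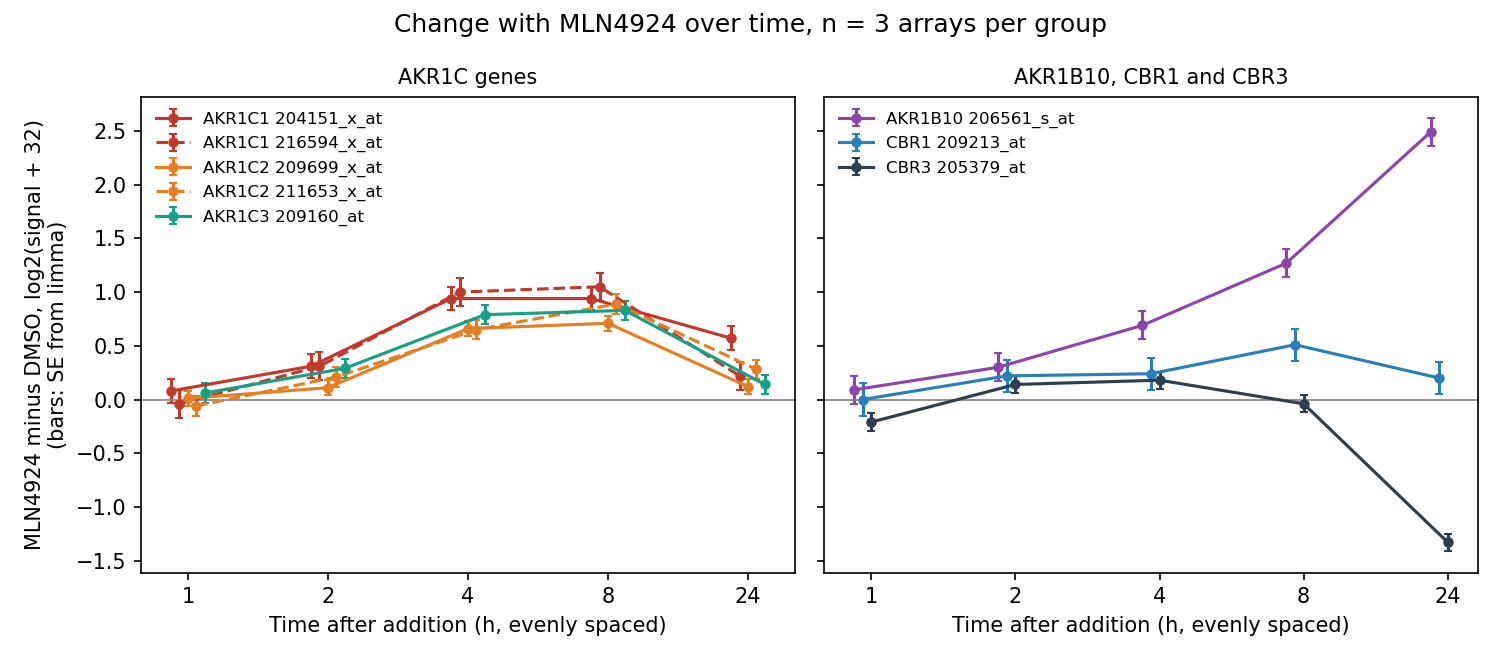
Difference between MLN4924 and DMSO in log2(signal + 32) against time for the 5 bright AKR1C probe sets (left; dashed lines are second probe sets of a gene) and for AKR1B10, CBR1 and CBR3 (right), with bars for the SE from limma and n = 3 arrays per group. The AKR1C changes are highest at 4 h and 8 h and lower at 24 h, AKR1B10 climbs to 2.49 and CBR3 drops to -1.33 at 24 h.

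CBR1, which reduces anthracyclines and prostaglandin E, had the smallest change of the 7 probe sets called at 8 h. Probe set 209213_at had 555, 476 and 406 with MLN4924 at 8 h, against 294, 316 and 365 in DMSO, a change of 0.51 (SE 0.15, adjusted p = 0.0236). The groups were separate at 8 h and overlapped at 1, 2, 4 and 24 h, and the changes of 0.22 at 2 h, 0.24 at 4 h and 0.20 at 24 h were not called. The F test over all times missed the threshold for CBR1 (adjusted p = 0.0505). Its call at 8 h ended without DMSO replicate 1 (adjusted p = 0.107), DMSO replicate 2 (0.0681), MLN4924 replicate 1 (0.129) or MLN4924 replicate 2 (0.0636) of that time, and when the fit held just those 6 arrays (0.0837). No change between consecutive times was called for CBR1.

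CBR3, the neighbour and closest relative of CBR1 among the members, fell at 24 h. Probe set 205379_at had 87.9, 68.7 and 70.5 with MLN4924 at 24 h, against 232, 248 and 232 in DMSO, a change of -1.33 (SE 0.08, adjusted p = 4.45e-12). All 3 MLN4924 arrays were far below all DMSO arrays, and they were also below every other array of the series for this probe set. At 8 h the signals were 189, 230 and 227 with MLN4924 and 210, 221 and 235 in DMSO, which overlapped, and the change of -0.04 was not called (SE 0.08, adjusted p = 0.86). The change at 24 h was below that at 8 h by -1.28 on the log2 scale (SE 0.12, adjusted p = 1.96e-08).

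Earlier changes of CBR3 were small and uncalled, and their sign differed between times. At 1 h the MLN4924 arrays, at 230, 250 and 228, lay below the DMSO arrays, at 281, 290 and 263, with a change of -0.21 (SE 0.08, adjusted p = 0.945). At 4 h they were 229, 272 and 267 with MLN4924 and 214, 235 and 218 in DMSO, with a change of 0.18 (SE 0.08, adjusted p = 0.378). In DMSO the change from 1 h to 24 h was -0.20 and not called (SE 0.08, adjusted p = 0.117), although the arrays of the 2 times did not overlap. The drop at 24 h was measured against a vehicle level of 237 ± 9.14 (SD, n = 3) that was close to those of 4 h (222 ± 11.01) and 8 h (222 ± 12.7).

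Before 4 h no member was called. At 1 h, 2 of the 12 had an unadjusted limma p under 0.05, 217626_at of AKR1C1 with a change of 0.41 and CBR3 with -0.21. At 2 h 6 had one, with a median change of 0.215 beside -0.001 over all probe sets tested. For these and the unadjusted counts below, the share over all probe sets or genes was not counted. At 2 h all 3 MLN4924 arrays were above all 3 DMSO arrays for 5 of the 12 probe sets, against 5.82% of all probe sets. These were AKR1B10, 209699_x_at and 211653_x_at of AKR1C2, 217626_at of AKR1C1 and AKR1C3, the last with 263, 246 and 298 in MLN4924 arrays and 208, 219 and 213 in DMSO arrays (change 0.29, SE 0.09, adjusted p = 0.181). AKR1C3 at 2 h was called only when p-values were adjusted over the 5 times together (adjusted p = 0.036). The ratio of 3' to 5' ACTB signal, a measure of RNA quality, averaged 1.286 ± 0.066 in MLN4924 arrays of 2 h and 1.563 ± 0.261 in DMSO arrays of 2 h (SD, n = 3 each). Leaving out DMSO arrays 1 and 2 of that time left 1 DMSO array at 2 h. That is too few to decide whether RNA quality affected these changes.

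Between consecutive times, the change with MLN4924 differed for 0 of 12 probe sets from 1 h to 2 h (2 at an unadjusted limma p under 0.05), 1 from 2 h to 4 h, 0 from 4 h to 8 h (1 unadjusted) and 6 from 8 h to 24 h. Over all probe sets 0.0827%, 0.273%, 0.956% and 14.8% were called in these comparisons. The step from 2 h to 4 h was called for 209699_x_at of AKR1C2 (0.55, SE 0.10, adjusted p = 0.00748). It was 0.63 for 204151_x_at (SE 0.15, adjusted p = 0.0956), and that probe set was called when MLN4924 2 h replicate 3 was left out (0.78, adjusted p = 0.00617). The call of 209699_x_at ended when the fit held just the 12 arrays of 2 h and 4 h (adjusted p = 0.137). Without DMSO arrays 1 and 2 of 2 h, which left 1 DMSO array at that time, its step was 0.55.

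The other targets of NRF2 gave a wider background for these genes. Of 33 measured genes on a list of 35, 1 rose at 1 h, 7 at 2 h, 17 at 4 h, 20 at 8 h and 21 at 24 h, and 0 fell at any time, with medians of 0.00, 0.14, 0.36, 0.40 and 0.28. Of all 19775 genes by their brightest probe set, 0.0152% were called higher at 1 h, 0.308% at 2 h, 1.65% at 4 h, 7.83% at 8 h and 15.5% at 24 h. HMOX1, which encodes haem oxygenase 1, rose at each time, by 3.97 at 4 h (SE 0.10, adjusted p = 2.07e-18) and by 1.42 at 24 h (SE 0.10, adjusted p = 2.51e-11). Its call at 1 h (0.55, SE 0.10, adjusted p = 0.0426) ended without any 1 of the DMSO arrays, or without MLN4924 replicate 1 or 2, of that time. NQO1, the quinone reductase gene often used as a marker of NRF2, changed by 0.26 at 4 h (SE 0.07, adjusted p = 0.0304), 0.31 at 8 h (SE 0.07, adjusted p = 0.00242) and 0.27 at 24 h (SE 0.07, adjusted p = 0.00231), with a signal of 7548 ± 251 with MLN4924 and 6246 ± 145 in DMSO at 24 h (SD, n = 3 each). The sulfiredoxin gene SRXN1 rose by 2.25 at 24 h (SE 0.07, adjusted p = 3.66e-17), the thioredoxin reductase gene TXNRD1 by 1.73 (SE 0.06, adjusted p = 1.99e-16), GCLM, a subunit of the first enzyme of glutathione synthesis, by 1.61 (SE 0.08, adjusted p = 1.45e-13), the biliverdin reductase gene BLVRB by 1.27 (SE 0.12, adjusted p = 3.85e-09) and the export pump gene ABCC2 by 1.22 (SE 0.07, adjusted p = 2.6e-12). At 2 h OSGIN1, an oxidative stress response gene, rose by 1.42 (SE 0.15, adjusted p = 9.45e-06).

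Other reductases and dehydrogenases, mainly of the aldo-keto and short-chain families, were mostly not called, and more of those called fell than rose. Of 38 measured genes on a list of 44, 0 were called at 1 h and 0 at 2 h by limma (2 at each time at an unadjusted p under 0.05), 2 fell at 4 h, 3 rose and 5 fell at 8 h, and 3 rose and 9 fell at 24 h. The share of all genes called lower was 1.38% at 4 h, 6.35% at 8 h and 17.6% at 24 h. The share called higher was 7.83% at 8 h and 15.5% at 24 h, so at 24 h more of all genes also fell than rose. DHRS3, which reduces retinaldehyde to retinol, had 134 ± 17.2 with MLN4924 and 474 ± 32.7 in DMSO at 24 h (SD, n = 3 each), a change of -1.61 (SE 0.07, adjusted p = 2.09e-14), and had also fallen at 4 h and 8 h (-0.56 and -1.10). HSD17B1 fell by 0.48 at 4 h (SE 0.12, adjusted p = 0.0248), and KCNAB1, a potassium channel subunit gene of the aldo-keto reductase family, rose by 0.66 at 8 h (SE 0.18, adjusted p = 0.0173). Others that fell at 24 h were CBR4, a mitochondrial carbonyl reductase gene (-1.39, SE 0.13, adjusted p = 1.14e-08), the oestradiol-forming dehydrogenase gene HSD17B1 (-1.12, SE 0.12, adjusted p = 4.21e-08), the xylulose reductase gene DCXR (-1.02, SE 0.10, adjusted p = 2.1e-08) and HSD17B11 (-0.85, SE 0.10, adjusted p = 4.6e-07). PTGR1, a prostaglandin reductase gene, rose by 0.86 at 24 h (SE 0.07, adjusted p = 6.4e-10). With each array centred on its median, 3 of these genes rose and 2 fell at 8 h, and of all probe sets called 74.9% instead of 53.9% were higher at 8 h and 65.6% instead of 55.1% at 4 h.

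**Figure D4:**
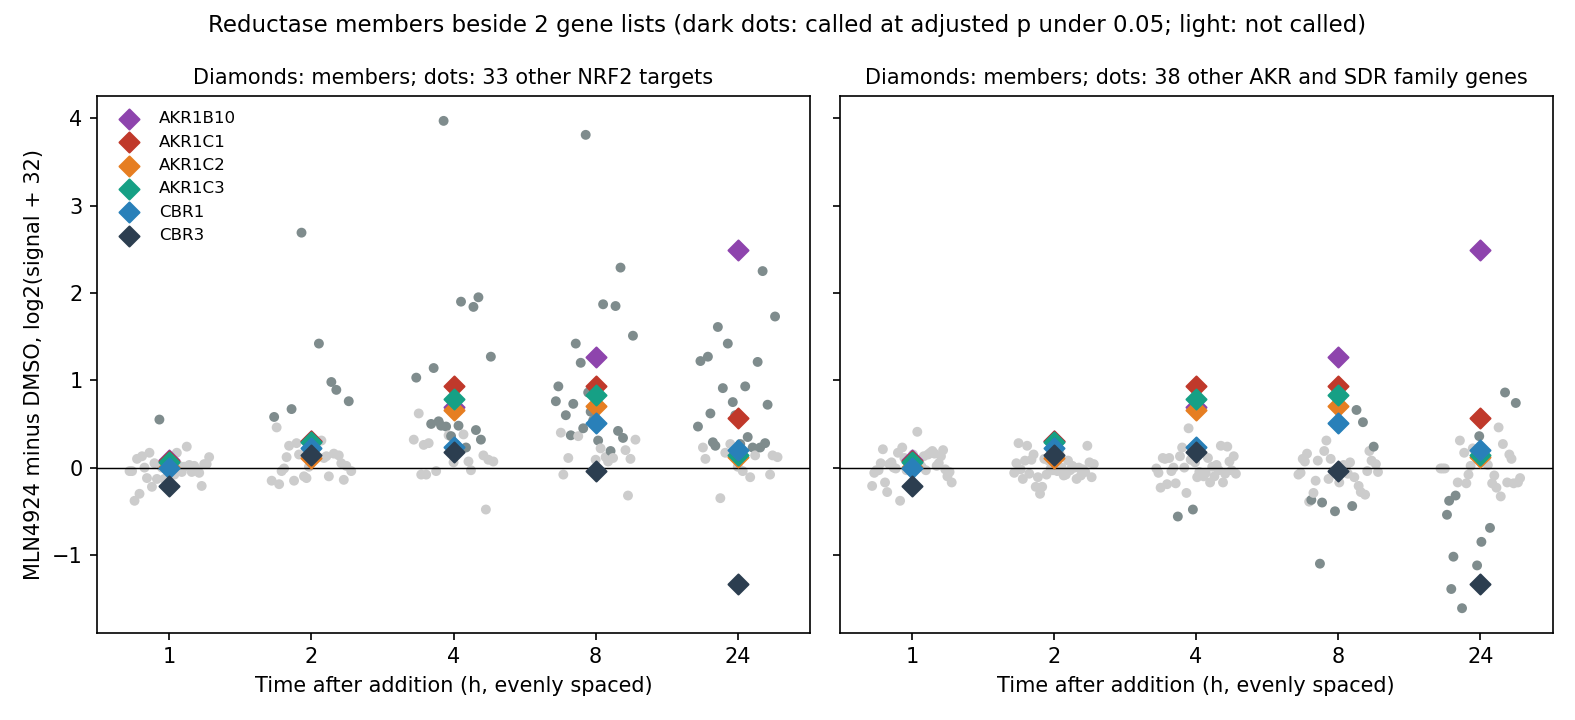
Difference between MLN4924 and DMSO in log2(signal + 32) against time for the brightest probe set of each of the 6 measured members (diamonds), beside 33 other NRF2 targets (left) and 38 related reductase genes (right) as dots, dark where called at an adjusted p under 0.05. At 24 h AKR1B10 lies at 2.49, above the highest dot on the left (SRXN1, 2.25), and CBR3 lies at -1.33 below all NRF2 targets and among the related reductases that fell.

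AKR1C4, the liver-type member that lies in the same chromosome 10 cluster and is on the list of related reductases, was dim throughout, with 11.5 ± 2.5 with MLN4924 and 11.9 ± 3 in DMSO at 24 h (SD, n = 3 each), and was not called at any time. A probe set annotated to both AKR1C2 and AKR1C1 was outside the choice of members and is described with the closing observations.

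Likeness of pattern was measured as Pearson's r over the 10 group means, against 8436 other genes whose group means spanned at least 0.5 on the log2 scale, and it is given as a description of the closest 3. For AKR1C1, AKR1C2 and AKR1C3 the closest gene was SPP1, which encodes the secreted protein osteopontin, with r of 0.988, 0.968 and 0.980 and a change of 1.26 at 8 h (SE 0.09) and 0.61 at 24 h (SE 0.09). Next came RAB29 and GID4 for AKR1C1 (0.969 and 0.965), TRAF5 and HS3ST3B1 for AKR1C2 (0.964 and 0.961), and TRAF5 and SLC2A3 for AKR1C3 (0.975 and 0.947). AKR1B10 was most like TXLNG and BCAT1 (0.986 each) and RBM27 (0.985). CBR1 was most like KDM2A (0.952), DNAJB4 (0.944) and NEIL3 (0.941). CBR3 was most like TMEM158 (0.986), PTTG1 (0.983) and TGFBI (0.982), whose changes at 24 h were -1.25 (SE 0.11), -0.67 (SE 0.06) and -1.65 (SE 0.09). The means share their arrays and no p is given.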

How the data were processed

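Labelled cRNA of the cells was measured on 30 arrays, each assigned to its group by its title. The deposited values are intensities, linear probe set signals made with Affymetrix Expression Console, per the submitters' processing notes. Neither a version nor an algorithm was found there. Trimmed by 2% at both ends, each array had a mean of 150.02, and 55 values were 0. No detection calls were used, and the 3 arrays per group limit the precision.

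Symbols came from the platform annotation supplied with the table: 41097 probe sets had 1 symbol, 1801 several and 11777 none. Quantile normalization was followed by log2(signal + 32). With limma 3.58.1 in R 4.3.3, 1 mean per group was fitted over all 30 arrays (20 residual degrees of freedom), followed by eBayes. Adjusted p-values are Benjamini-Hochberg over all probe sets with 1 symbol, called under 0.05, two-sided. A gene on a list was represented by its probe set with the highest mean. Start windows were aligned with Biopython 1.88.

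The members, lists and tests were chosen with earlier results of these data known. By rule, all member probe sets are given, with HMOX1, NQO1, up to 6 called list genes with the largest change at 24 h and up to 2 at other times, and the 3 genes most like each member. Alternatives covered scaling, the value added to the signal, a filter on dim probe sets, the probe sets tested, the arrays in the fit, the adjustment, a replicate block, the variance prior and leaving out each array. On simulated data for the 24 h comparison with 41097 probe sets, 41 of 75 changes of 0.5, 68 of 70 changes of 1 and 55 of 55 changes of 2 were recovered. Changes were placed only in probe sets with a mean above the median, and in far fewer than were called in the real comparison. These rates therefore do not cover dim probe sets.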

Additional observations from a re-analysis of the deposited data

Results flagged for a closer look

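The change with MLN4924 differed between 8 h and 24 h by a direct limma test for 6 of the 12 member probe sets, against 14.8% of all probe sets. The difference was 1.22 for AKR1B10, -0.83 for 216594_x_at of AKR1C1, -0.59 for 209699_x_at and -0.61 for 211653_x_at of AKR1C2, -0.69 for AKR1C3 and -1.28 for CBR3. Between 2 h and 4 h the change differed for 209699_x_at of AKR1C2, by 0.55, against 0.273% of all probe sets called.

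Probe set 1555854_at, annotated to both AKR1C2 and AKR1C1 and so left out of the members, was higher in MLN4924 arrays. In a fit of all 54675 probe sets its change was 0.91 at 4 h (SE 0.12, adjusted p = 3.34e-05), 1.11 at 8 h (SE 0.12, adjusted p = 5.3e-07) and 0.65 at 24 h (SE 0.12, adjusted p = 0.000146). Its signal averaged 57.6 ± 13.1 with MLN4924 and 9.64 ± 6.73 in DMSO at 8 h (SD, n = 3 each), and the DMSO values were below the median of all probe sets.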

How the results depend on the processing

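Of 30 member changes called, 25 kept direction and call under every alternative run, 5 lost the call under at least 1, and 0 reversed. The 5 were AKR1B10 at 4 h and in DMSO over time, 211653_x_at at 24 h, the step of 209699_x_at from 2 h to 4 h and CBR1 at 8 h. Of the changes not called, 5 gained a call under at least 1 alternative: AKR1C3 at 2 h, 209699_x_at, 217626_at and 1555856_s_at at 24 h, and the step of 204151_x_at from 2 h to 4 h. Of 425 counts under alternatives, 398 stayed within 1.5 times. A count of 0 that stayed 0 was included among these, so the figure says less about the counts above 0. The cause of the moves beyond 1.5 times was not tested. Adjusted over the 5 times together, 1 member was called at 2 h, against 0. In the step from 2 h to 4 h, 0 members were called from only the arrays compared and 1 to 2 when single arrays were left out, against 1. Leaving out DMSO 2 h arrays 1 and 2 left 1 DMSO array at that time, so no count is given for it. Other NRF2 targets called at 1 h, 1 (HMOX1), were 0 with signals as deposited, with 1 or 16 added, with 1 probe set a gene, with a replicate block and from only the arrays compared, and 0 to 1 without single arrays. From only the arrays compared they were 1 at 2 h (against 7) and 11 at 4 h (against 17), and related reductases were 1 at 4 h (against 2) and 3 at 8 h (against 8), in fits with fewer arrays. Related reductases at 8 h were 5 with median centring. Without single arrays they were 1 to 2 at 4 h (1 without DMSO replicate 1 or 2 or MLN4924 replicate 2 or 3) and 4 to 7 at 8 h (4 without MLN4924 replicate 1, 5 without DMSO replicate 1 or 3). Same-numbered MLN4924 and DMSO arrays of a time did not deviate together (r of -0.1 to 0.06 over 15 pairs). Arrays of different times were not compared in this way, so it cannot decide whether the numbers pair the samples. With a replicate block the member counts were the same at every time (6 at 4 h, 7 at 8 h, 4 at 24 h). Signals near the median of 36.58 limit what AKR1B10 in DMSO and the dim AKR1C probe sets can show.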

Other observations

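CBR3-AS1, the antisense gene named for CBR3, was measured by 2 probe sets and was looked up because CBR3 fell. Probe set 1559501_at had a mean of 112 ± 31.0 with MLN4924 and 77.5 ± 15.2 in DMSO at 24 h (SD, n = 3 each), a change of 0.38 that was not called in a fit of all probe sets (SE 0.19, adjusted p = 0.157). Its largest change, 0.57 at 8 h, just missed the threshold in that fit (SE 0.19, adjusted p = 0.0528). The 8 h signals were 116.8 to 147.7 with MLN4924 and 65.62 to 87.26 in DMSO. Probe set 1559917_a_at had 18.0 ± 4.16 with MLN4924 and 28.8 ± 14.9 in DMSO at 24 h, a change of -0.26 that was not called (SE 0.29, adjusted p = 0.625). AKR1E2, the coding gene before AKR1C1 in gene order, was dim in all 3 of its probe sets and not called at any time.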
